A study of Mus musculus with 9 samples.

Results

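Cultured mouse podocytes given thapsigargin and forskolin together were compared with podocytes given the vehicle DMSO, so the comparison describes the net state of the cells under both drugs. It rests on 6 of the 9 arrays of the study, 3 per group, and covers all 22180 genes that had a probe set annotated with exactly 1 gene symbol. Where a gene had several, its brightest probe set by the mean over the 9 arrays stood for it. The podocytes had been differentiated for 11 days at 37 °C before treatment. The both-drug group received 2.5 µM thapsigargin with 10 µM forskolin for 16 hours. The remaining group, used here as a reference, received 2.5 µM thapsigargin without forskolin for 16 hours. No group received forskolin alone, so a change against DMSO cannot be divided between the drugs from these 6 arrays. The labels name the arrays biological replicates but do not say whether cultures, passages or extractions were separate, and the p-values therefore cover the spread between these arrays, which may be technical.

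Podocytes are the epithelial cells that wrap the capillaries of the kidney glomerulus with interdigitating foot processes, which rest on an actin skeleton and are anchored to the glomerular basement membrane by integrins. Thapsigargin inhibits SERCA, which pumps calcium into the endoplasmic reticulum (ER). An emptied calcium store impairs protein folding in the ER, and the sensors PERK, IRE1 and ATF6 then start the unfolded protein response: translation is slowed, and the factors ATF4, CHOP, XBP1 and cleaved ATF6 induce chaperones, degradation machinery and amino acid metabolism. Forskolin activates adenylyl cyclase directly. The cAMP it makes activates protein kinase A, which phosphorylates the factor CREB, and also signals through EPAC.

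Values are log2 expression values per gene and array, and a change is the mean of the 3 both-drug arrays minus the mean of the 3 DMSO arrays, given with the standard error of limma. A gene was called when its Benjamini-Hochberg adjusted p in limma, over all genes tested, was below 0.05. Arrays of 1 group correlated at Pearson's r of 0.989 to 0.993 across probe sets, and both-drug with DMSO arrays at 0.966 to 0.978. Both-drug with thapsigargin arrays correlated at 0.987 to 0.992. The main axis of variation within groups held 30.9% of the within-group variance. On it DMSO replicate 1 and both-drug replicate 1 lay at the same end, at -14.6 and -11.9. Replicate 3 of these groups lay at the other end, at 14.1 and 9.0. Counts are also given without the replicate 1 arrays of these groups, and no fit left out both replicate 3 arrays together. Of the podocyte markers checked 10 were measured, and 8 of them lay above 5.84, the median of all probe set values, on every DMSO array. Nphs1, which encodes nephrin of the slit diaphragm, lay between 6.38 and 6.71 there, and Ptpro, which encodes a podocyte tyrosine phosphatase, between 5.32 and 5.39. Of 10 tubular markers 7 lay above that median on every DMSO array too, led by the water channel gene Aqp1 at 11.69 to 11.72 and the cadherin gene Cdh16 at 11.09 to 11.21. The endothelial marker Emcn, at 3.86 to 3.89, and the leukocyte marker Ptprc, at 3.67 to 3.87, lay below the lower quartiles of the arrays. Above 5.84 on every DMSO array lay 2 of 6 endothelial, 2 of 6 leukocyte and 2 of 6 mesangial and pericyte markers. Among them were Csf1r at 7.88 to 8.08 and Pdgfrb at 10.35 to 10.39.

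Cells under both drugs carried raised transcripts of the ER stress response, amino acid supply and nuclear receptors of the NR4A family. They carried lowered transcripts of chemokines, interferon-stimulated genes, matrix, adhesion and actin. In limma 7662 of 22180 genes (34.5%) were called. Of these 3963 (17.9%) were higher and 3699 (16.7%) lower. At least 2-fold changes were called for 571 higher genes (2.57%) and 599 lower genes (2.7%), and at least 4-fold changes for 75 and 96. At least 8-fold changes were called for 15 higher and 16 lower genes. The median change of all genes was -0.04. Without DMSO replicate 1 and both-drug replicate 1 the count was 7144. For 42.6% of genes the both-drug values did not overlap those of DMSO.

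**Figure D1:**
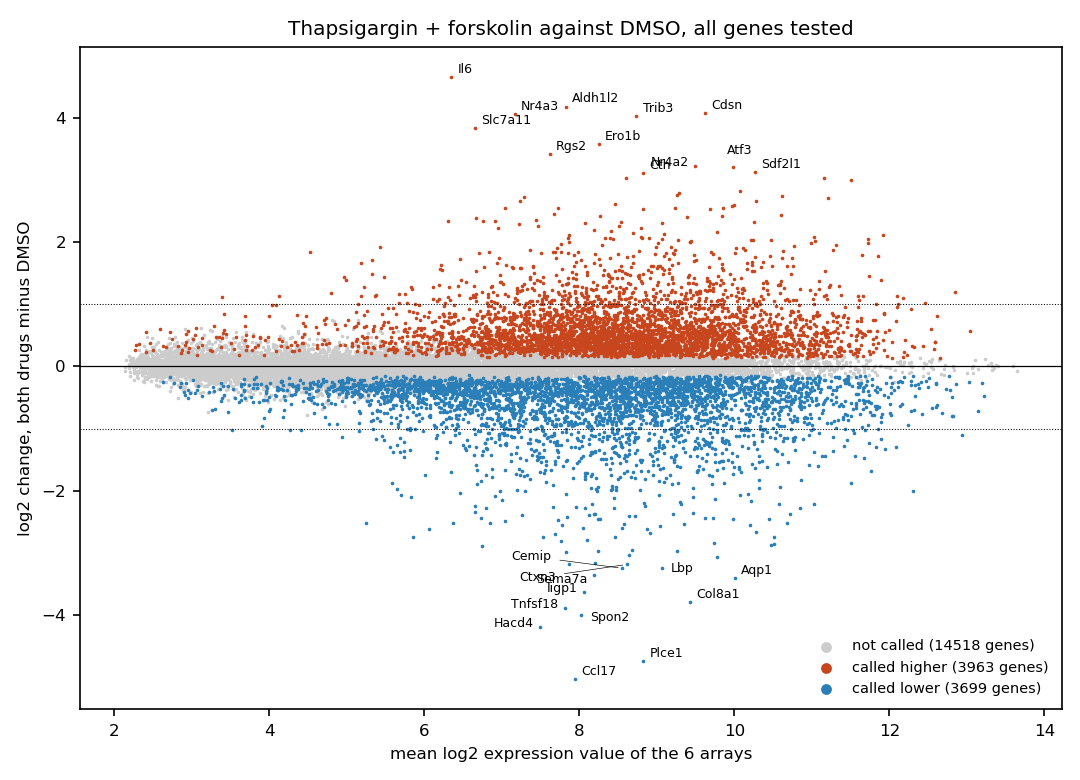
Each point is 1 gene, with the mean log2 value of the 6 arrays on the horizontal axis and the log2 change, both drugs minus DMSO, on the vertical axis; dotted lines mark 2-fold changes, and the 12 largest rises and 12 largest falls of the naming rule are labelled. Called genes (3963 higher, 3699 lower) lie on both sides of 0 across the range of levels, with Ccl17 the lowest and Il6 the highest of the labelled genes.

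With clone and predicted names passed over, the 12 largest rises included genes of the ER stress response and genes listed here as cAMP-responsive. Il6 was listed among the cytokines and Slc7a11 among the amino acid transporters. Il6, which encodes an inflammatory cytokine, had log2 values of 4.18, 3.83 and 4.07 on the DMSO arrays and 8.56, 8.66 and 8.82 on the both-drug arrays. Its DMSO values lie under the lower quartile of each of those arrays, which was 4.53 to 4.54, and background was not checked, so no size of change is given for Il6. Aldh1l2, a mitochondrial folate enzyme, had 5.91, 5.86 and 5.42 under DMSO and 9.89, 9.89 and 9.96 under both drugs. Its change was 4.18 ± 0.11, an 18.1-fold rise. Cdsn, which encodes corneodesmosin, an adhesion protein of the cornified skin layer, read 7.64, 7.44 and 7.67 against 11.68, 11.69 and 11.58. Its change was 4.07 ± 0.07. The nuclear receptor gene Nr4a3 read 5.12, 5.12 and 5.19 against 9.19, 9.20 and 9.21, a change of 4.06 ± 0.05. The groups lay far apart for all 4 genes, and DMSO replicate 3 was the low array for Aldh1l2.

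The pseudokinase gene Trib3, an inhibitor of AKT and a target of CHOP, followed at 4.02 ± 0.09. Slc7a11, which encodes the cystine importer, read 4.73, 4.84 and 4.65 under DMSO and 8.51, 8.61 and 8.58 under both drugs. The ER oxidase gene Ero1b rose 11.9-fold (3.57 ± 0.06). Rgs2, a brake on G-protein signalling, read 6.07, 6.08 and 5.60 against 9.31, 9.36 and 9.31. DMSO replicate 3 was the low array, and the groups remained apart by more than 3 log2 units. The last of the 12 were Nr4a2 at 3.23 ± 0.05, the stress factor gene Atf3 at 3.21 ± 0.07, the ER co-chaperone gene Sdf2l1 at 3.12 ± 0.05 and Cth, which encodes the cysteine-making enzyme cystathionine gamma-lyase, at 3.11 ± 0.11. The limma adjusted p of the 12 rises lay between 4.1e-10 for Nr4a3 and 4.8e-08 for Cth.

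The largest of the 12 falls was that of a chemokine gene. Ccl17, whose product attracts T cells, had 10.24, 10.61 and 10.52 on the DMSO arrays and 5.34, 5.35 and 5.61 on the both-drug arrays. Its change was -5.03 ± 0.11, to 1 part in 32.6. Plce1, which encodes phospholipase C epsilon and is mutated in hereditary nephrotic syndrome, read 11.20, 11.24 and 11.13 against 6.41, 6.39 and 6.57. It fell by 4.73 ± 0.08 on the log2 scale. Hacd4, an enzyme of very long chain fatty acid elongation, fell by 4.18 ± 0.08. Spon2, a secreted matrix protein, fell by 3.99 ± 0.08. Tnfsf18, which encodes the TNF family ligand GITRL, read 9.76, 9.74 and 9.76 against 5.47, 6.25 and 5.89. The both-drug arrays were spread more widely than the DMSO arrays for this gene, and the groups were more than 3 log2 units apart. The next were the short-chain collagen gene Col8a1 (-3.79 ± 0.08), the interferon-induced GTPase gene Iigp1 (-3.62 ± 0.11) and Aqp1 (-3.40 ± 0.05). They were followed by the semaphorin gene Sema7a (-3.36 ± 0.09), the hyaluronan-degrading protein gene Cemip (-3.25 ± 0.07), the lipopolysaccharide-binding protein gene Lbp (-3.24 ± 0.06) and Ctxn3, a cortexin gene (-3.18 ± 0.09). The limma adjusted p of the 12 falls lay between 1.1e-09 for Aqp1 and 1.4e-07 for Tnfsf18.

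**Figure D2:**
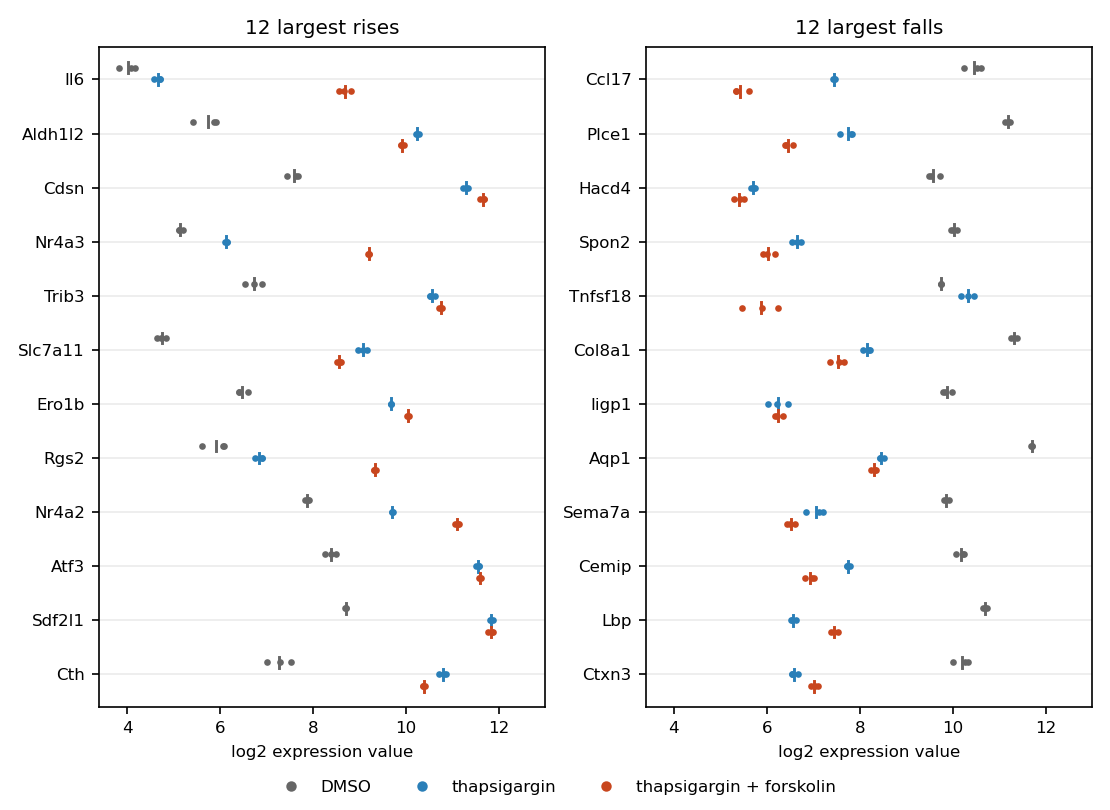
Log2 expression values (horizontal axis) of the 12 largest rises and the 12 largest falls on all 9 arrays, with a point per array, a bar at the group mean and the groups coloured as in the key. For Il6, Nr4a3 and Rgs2 the thapsigargin arrays lie nearer to DMSO than to both drugs, for Aldh1l2, Trib3 and Atf3 they lie beside the both-drug arrays, and for Tnfsf18 they lie above DMSO.

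The ER stress sensors and their factors were raised. Of 17 measured members 14 rose, with a median change of 0.83 beside -0.04 for all genes. Atf3 had 8.27, 8.38 and 8.50 under DMSO and 11.56, 11.60 and 11.61 under both drugs. Ddit3, which encodes CHOP, read 9.22, 9.25 and 9.23 against 12.04, 11.96 and 11.95. It rose 6.72-fold (2.75 ± 0.06). The sensor genes rose less: Atf6 by 1.75 ± 0.06, Ern1, which encodes IRE1, by 1.62 ± 0.07, and Eif2ak3, which encodes PERK, by 1.08 ± 0.05. Xbp1 rose by 1.25 ± 0.05 and Atf4 by 1.15 ± 0.06. The members that did not pass were Atf6b at 0.16, Creb3 at 0.06 and Mbtps1, which encodes the protease that cleaves ATF6, at -0.14. Against thapsigargin alone, a comparison that uses the same 3 both-drug arrays, Ddit3 differed by 0.00, Atf4 and Xbp1 by -0.01 and Eif2ak3 by 0.22. In that comparison 821 of all genes (3.7%) were called higher and 924 (4.17%) lower. Of the 17 members 1 was called there, Eif2ak3.

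Of 23 ER chaperones and folding enzymes 21 rose, 14 of them at least 2-fold, with a median change of 1.37. For thapsigargin alone against DMSO the median was 1.33. Creld2, a secreted ER stress protein, read 9.98, 10.02 and 10.02 under DMSO and 13.01 on all 3 both-drug arrays. Dnajb9, a co-chaperone that restrains IRE1, rose 6.52-fold (2.70 ± 0.08). Hspa5, which encodes the chaperone BiP, read 10.68, 10.81 and 10.75 against 12.54, 12.54 and 12.55. It rose 3.48-fold (1.80 ± 0.05). The lectin chaperone gene Canx, at 0.39, was the smallest rise, and Dnajc10 at 0.14 and Fkbp14 at 0.12 did not pass. For all 23 the both-drug values lay above those of DMSO without overlap, beside 21.4% of all genes.

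The degradation and export arms of the ER moved in the same direction. Of 18 genes of ER-associated degradation, which returns misfolded proteins to the proteasome, 14 rose and 1 fell, with a median of 0.76. Herpud1, a scaffold of the degradation complex, read 10.84, 10.80 and 10.94 against 12.98 on each both-drug array. The mannosidase-like gene Edem1 rose by 2.03 ± 0.06, the ubiquitin ligase gene Syvn1 by 2.01 ± 0.05 and its partner Sel1l by 1.99 ± 0.05. The member that fell was Erlec1, an ER lectin, at -0.26. Genes of protein entry into the ER and of export in COPII vesicles rose in 26 of 29 cases and fell in 1, with a median of 0.73. Sec24d, a cargo adaptor of COPII vesicles, rose 3.09-fold (1.63 ± 0.06) and the signal peptidase subunit gene Sec11c 2.67-fold (1.42 ± 0.07). The receptor subunit gene Srprb, at 1.26, and Spcs2, at 1.25, came next. Spcs3, at -0.17, was the fall, and its call was lost in a fit of the 6 arrays alone, without both-drug replicate 2 or 3 and without DMSO replicate 1 and both-drug replicate 1.

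Promoters of these lists were searched for the ER stress response element, spelled as CCAAT, any 9 bases and then CCACG, which ATF6 binds together with NF-Y. The search covered the 250 bases before the start of each gene on both strands, in RefSeq sequences of mouse build GRCm38.p6. Of the 23 chaperone genes 20 had a promoter sequence, and 8 held the element. Among all 27025 genes with a promoter sequence 0.13% held it. The 8 were Calr, Canx, Creld2, Dnajc3, Ero1b, Hsp90b1, Hspa5 and Pdia6, whose changes ran from 0.39 for Canx to 3.57 for Ero1b. Of 15 degradation genes with a promoter 2 held it, Syvn1, which rose, and Derl3, at -0.08, which did not pass. A match is a description of the letters and not a site shown to be bound. The stretches of 3 members are printed to show the element in a gene with a moderate rise and in 2 with large rises. They were chosen after the matches were seen. Capitals mark the element, which lies on the opposite strand in Creld2 and Ero1b. The stretches cover chr2:34771984-34772083 on the plus strand for Hspa5, chr15:88819479-88819578 on the plus strand for Creld2 and chr13:12565641-12565740 on the plus strand for Ero1b, all in the promoter just before the gene.
Hspa5: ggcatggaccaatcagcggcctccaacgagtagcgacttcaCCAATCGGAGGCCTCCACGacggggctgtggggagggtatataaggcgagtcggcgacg
Creld2: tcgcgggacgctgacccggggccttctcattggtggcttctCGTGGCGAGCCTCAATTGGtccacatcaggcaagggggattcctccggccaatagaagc
Ero1b: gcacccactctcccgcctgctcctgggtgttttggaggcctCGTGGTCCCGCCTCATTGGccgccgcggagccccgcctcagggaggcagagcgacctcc

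The calcium store genes changed in both directions. Of 22 members 4 rose and 6 fell, with a median of -0.08. Atp2a2, the gene of the SERCA isoform made in most cells, read 11.00, 10.95 and 10.97 under DMSO and 12.76, 12.74 and 12.75 under both drugs. It rose 3.43-fold (1.78 ± 0.05). The plasma membrane pump gene Atp2b1 rose by 0.98 ± 0.06, while its relative Atp2b4 fell by 1.65 ± 0.09. The IP3 receptor gene Itpr3 fell by 1.27 ± 0.06, and Stim1, the sensor of the store's calcium content, by 0.76 ± 0.09.

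Targets of PERK, ATF4 and CHOP were raised. Of 24 members 19 rose, 15 of them at least 2-fold, and 3 fell, with a median of 1.29. All 41 lists were chosen with earlier results of these arrays known, so none of their counts is independent evidence. That includes Cdsn and Avil, which had been put on this list and are counted here. Chac1, which degrades glutathione, read 7.89, 7.86 and 7.95 against 10.67, 10.67 and 10.71, a 6.89-fold rise. Ppp1r15a, which encodes the phosphatase subunit GADD34 that restores translation, rose 7.09-fold (2.83 ± 0.11). The falls were Stc2, a secreted glycoprotein, at -1.58, the BH3-only gene Bbc3 at -0.57 and the death receptor gene Tnfrsf10b at -0.24. Fgf21, at 0.08, and Jdp2, at 0.02, did not pass.

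The composite core TGATGCAA, where ATF4 pairs with C/EBP factors, stood in the 250 bases before the start of 7 of 18 of these targets with a promoter sequence, beside 0.918% of all genes. The 7 were Avil, Chac1, Fgf21, Herpud1, Jdp2, Nupr1 and Vldlr, and 5 of them rose. Among members of the other lists that are not on this one, Slc7a11, Atf3, Got1 and Tars held it. The element TGACGTGG, read by XBP1 and ATF6, stood before 0.603% of all genes and before Txndc5 alone among the 20 chaperone genes. Overlaps of different motifs were found in 2 of 32851 promoter sequences. The stretches below show the core in 3 genes that rose at least 6-fold, chosen after the matches were seen, with the core in capitals on either strand. They cover chr3:50443626-50443725 on the minus strand for Slc7a11, where the core occurs in both orientations, chr2:119351003-119351102 on the plus strand for Chac1 and chr1:191183390-191183489 on the minus strand for Atf3.
Slc7a11: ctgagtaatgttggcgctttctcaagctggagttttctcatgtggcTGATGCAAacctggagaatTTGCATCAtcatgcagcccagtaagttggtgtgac
Chac1: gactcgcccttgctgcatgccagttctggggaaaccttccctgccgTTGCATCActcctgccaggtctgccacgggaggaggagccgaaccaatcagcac
Atf3: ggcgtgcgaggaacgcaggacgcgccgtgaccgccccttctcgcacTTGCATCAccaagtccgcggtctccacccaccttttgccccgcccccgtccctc

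Amino acid supply rose in synthesis, uptake and tRNA charging. Of 16 genes of serine, folate and amino acid synthesis 12 rose and 2 fell, with a median of 1.80, the highest of the 41 lists. The proline pathway gene Aldh18a1 read 9.32, 9.52 and 9.52 against 11.49 on each both-drug array. The mitochondrial folate gene Mthfd2 rose 3.98-fold (1.99 ± 0.06). Phgdh, the first enzyme of serine synthesis, did not pass at -0.08 ± 0.06, while Psat1, which acts next in that pathway, rose by 1.81 ± 0.05. The falls were Cbs, which starts transsulfuration of homocysteine, at -1.10, and the glutamine synthetase gene Glul at -1.08. Against thapsigargin alone 6 of the 16 were called lower and 2, Glul and Cbs, higher, with a list median of -0.26. Phgdh and Psat1 were among the lower genes there, at -0.31 and -0.34.

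Of 13 amino acid transporters 10 rose, with a median of 0.81. The glutamine and serine carrier gene Slc1a5 read 7.68, 8.02 and 7.93 under DMSO and 10.59, 10.68 and 10.64 under both drugs. Slc1a4 rose by 1.79 ± 0.05 and Slc38a1 by 1.66 ± 0.06. Of 18 cytosolic aminoacyl-tRNA synthetase genes 17 rose, 11 of them at least 2-fold, with a median of 1.10. For thapsigargin alone against DMSO that median was 1.14. The largest rise was that of Wars, for tryptophan, at 2.08 ± 0.05, followed by Eprs at 1.74, Lars at 1.68 and Vars at 1.58. Mars1, for methionine, was the member that did not pass, at -0.03. The ribosomal protein genes moved by less: 10 of 17 rose, with a median of 0.34, led by Rplp0 at 0.54 ± 0.08.

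The cAMP-CREB response genes split. Of 22 members 15 rose and 4 fell, with a median of 0.66 against DMSO and 0.30 against thapsigargin alone. All 3 NR4A nuclear receptors, immediate early genes of CREB, were raised. Nr4a1 read 8.47, 8.42 and 8.39 under DMSO, 7.66, 7.86 and 7.69 under thapsigargin alone and 10.93, 10.96 and 10.96 under both drugs. It was higher than in each other group, by 2.53 ± 0.06 against DMSO and 3.22 against thapsigargin. Nr4a2 read 7.90, 7.83 and 7.91, then 9.71, 9.71 and 9.70, then 11.06, 11.12 and 11.13, a stepwise order of the 3 groups with no overlap. Ptgs2, which encodes the inducible cyclooxygenase, rose 8.21-fold (3.04 ± 0.06). Under thapsigargin alone Ptgs2 already lay 2.08 above DMSO. Crem, whose product represses CREB targets, read 6.22, 6.32 and 6.21 against 7.03, 6.99 and 7.01.

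The falls in that list included other immediate early genes. Egr1 read 11.06, 10.70 and 10.75 under DMSO and 8.39, 8.44 and 8.39 under both drugs. It fell by 2.43 ± 0.09 on the log2 scale, and its change under thapsigargin alone against DMSO was -1.76. Fos read 9.47, 9.32 and 9.35 against 6.99, 7.04 and 6.99, and Junb fell by 0.81 ± 0.09. The coactivator gene Ppargc1a fell by 0.42. Dusp1 at 0.06, Fosb at 0.02 and Crtc1 at -0.06 did not pass.

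Genes that make, break and read cAMP moved in both directions: 9 of 29 rose and 10 fell, with a median of -0.12. The phosphodiesterase gene Pde3b read 4.94, 5.17 and 5.32 against 7.41, 7.55 and 7.47. Further phosphodiesterases rose too, Pde1a by 1.17 ± 0.12, Pde8a by 1.10 ± 0.06 and Pde4b by 0.86. Pde7a, at -0.87, and Pde4c, at -0.70, fell. Rapgef3, which encodes the cAMP sensor EPAC1, fell by 1.43 ± 0.07, and the catalytic subunit gene Prkaca of protein kinase A by 0.47.

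The naming rule also picked the genes that were higher or lower under both drugs than in each of the other groups. The 8 that ranked first as higher, out of more such genes, were Il6, Nr4a3, Nr4a1, Rgs2, Fgf7, Vgf, Mcam and Il11. Fgf7, a growth factor for epithelial cells, read 6.86, 7.31 and 7.08 under DMSO, 7.89, 7.88 and 7.99 under thapsigargin and 10.10, 10.18 and 10.06 under both drugs. It rose 8.16-fold against DMSO. Vgf, which encodes a secreted neuropeptide precursor, rose by 2.42 ± 0.08. Mcam, an adhesion molecule also used as a pericyte marker, read 8.70, 8.80 and 8.81 under DMSO, 7.98, 8.04 and 8.11 under thapsigargin and 10.65, 10.69 and 10.51 under both drugs. It lay lowest under thapsigargin and highest under both drugs. The cytokine gene Il11 rose by 1.83 ± 0.16, with DMSO values spread from 5.60 to 6.29.

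The full cAMP response element TGACGTCA stood in the 250 bases before the start of Mcam and of no other of the 7 of these 8 genes with a promoter sequence, beside 1.77% of all genes. Among 19 cAMP-CREB genes with a promoter sequence it stood before Dusp1. Absence says that these letters are not in this window. The stretch before Mcam, shown for its match, is chr9:44134558-44134657 on the plus strand, with the element in capitals.
Mcam: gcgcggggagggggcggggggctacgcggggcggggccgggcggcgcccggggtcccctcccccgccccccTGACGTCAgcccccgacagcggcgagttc

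The 8 genes that the rule picked as lower than in both other groups, out of more such genes, were Tnfsf18, Ccl17, Cxcl10, Ccl2, Nes, Tgfb2, Gask1b and Plce1. Cxcl10, an interferon-induced chemokine gene, read 9.11, 9.25 and 9.34 under DMSO, 9.23, 9.19 and 9.14 under thapsigargin and 7.24, 7.16 and 7.29 under both drugs. DMSO and thapsigargin values overlapped, and both-drug values lay well below them, by 2.01 ± 0.07 against DMSO. Nes, which encodes the intermediate filament protein nestin, fell by 1.75 ± 0.08, and Tgfb2, a TGF-beta ligand gene, by 1.70 ± 0.06. Gask1b, which encodes a Golgi-associated kinase-like protein, fell by 1.84 ± 0.06. Apart from these 8, Vdr, the vitamin D receptor gene, and Lox, a collagen crosslinking enzyme gene, were read in all groups. For each of them thapsigargin alone and both drugs lay on opposite sides of DMSO. Vdr read 9.82, 9.82 and 9.81 under DMSO, 7.95, 7.95 and 7.87 under thapsigargin and 10.78, 10.79 and 10.77 under both drugs. Lox read 9.91, 10.00 and 9.86, then 10.79, 10.87 and 10.93, then 8.84, 9.03 and 9.01.

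For some genes that thapsigargin alone had moved, the both-drug values overlapped those of DMSO. Kcnj16, a potassium channel gene, read 9.49, 9.59 and 9.69 under DMSO, 7.18, 7.14 and 7.72 under thapsigargin and 9.67, 9.58 and 9.61 under both drugs. The difference from DMSO was 0.03 ± 0.14. Klhl14 (-0.03 ± 0.11), the nuclear noncoding RNA Neat1 (-0.08 ± 0.07) and Eya1, a regulator of kidney development (-0.08 ± 0.07), had also been lowered by thapsigargin. Acpp (0.10 ± 0.08) and Myo1d (0.01 ± 0.06) completed that set. In the opposite direction the protocadherin gene Pcdh19 read 6.76, 6.65 and 6.77, then 8.07, 7.90 and 8.08, then 6.76, 6.67 and 6.78. Bmp2 (0.08 ± 0.15), Zfp937 (-0.04 ± 0.12), Slc35f2 (0.24 ± 0.12), Morc4 (0.27 ± 0.11) and Zfp493 (0.28 ± 0.17) had been raised by thapsigargin and overlapped DMSO under both drugs. These genes were chosen for the overlap, and a p above the threshold does not show equal levels. Morc4 was called higher than DMSO without DMSO replicate 3 and among genes above the median level, Zfp493 without both-drug replicate 2, and Zfp937 lower when a gene's probe sets were averaged. The difference of Zfp493 from thapsigargin alone lost its call under 8 alternatives.

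**Figure D3:**
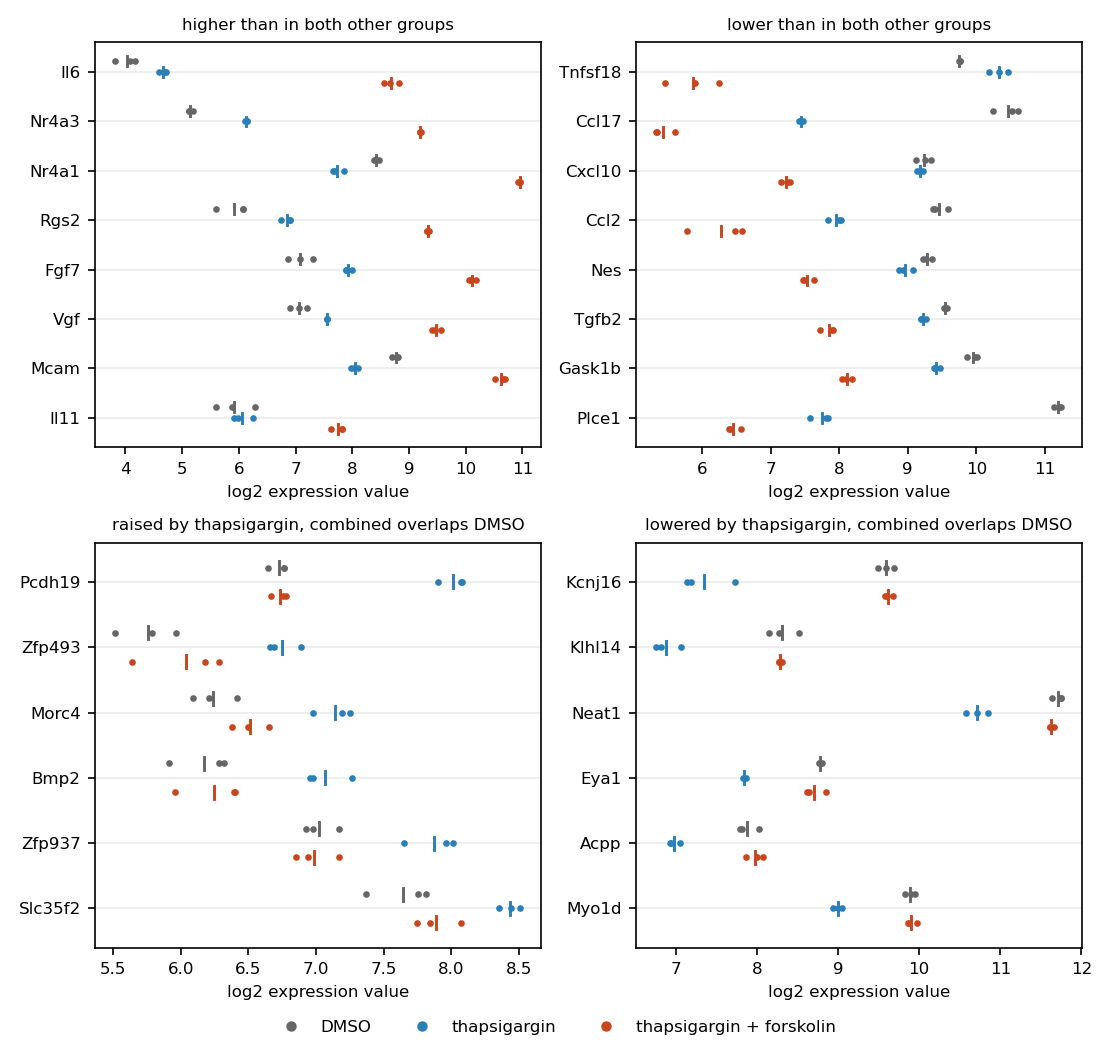
Log2 expression values (horizontal axis, a different range in each panel) on all 9 arrays of the genes higher or lower under both drugs than in each other group, and of genes moved by thapsigargin whose both-drug values overlap DMSO; points are arrays and bars group means. In the upper panels the both-drug points stand apart from both other groups, and in the lower panels their range overlaps that of the DMSO points. For Morc4, Zfp493, Slc35f2 and Bmp2 most both-drug points lie above all DMSO points, and for Neat1 and Eya1 most lie below them.

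Of 26 cytokine and chemokine genes 13 fell, 3 rose and 10 did not pass, with a median of -0.28. Those that rose were Il6, Il11 and Il34, a ligand of the CSF1 receptor, at 0.87. Ccl2, which attracts monocytes, read 9.39, 9.59 and 9.37 under DMSO and 6.59, 5.78 and 6.48 under both drugs, with replicate 2 the lowest. It fell by 3.17 ± 0.19. Cx3cl1, a membrane-bound chemokine gene, fell by 2.96 ± 0.08, Cxcl16 by 1.67 and Cxcl12 by 1.38. The inflammatory cytokine genes Il1b, at 0.05, and Tnf, at -0.06, did not pass.

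Genes of NF-kB factors and their inhibitors changed in both directions, 3 higher and 5 lower of 16 beside 34.5% of all genes called, with a median of -0.11. The adhesion molecule gene Vcam1 read 8.85, 9.08 and 9.44 against 7.60, 7.50 and 7.57. Nfkbia, which encodes the inhibitor IkB alpha, fell by 0.78 ± 0.06 and Nfkbib, which encodes IkB beta, rose by 0.78 ± 0.06. Rel rose by 0.57.

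Of 22 interferon-stimulated genes 14 fell and 2 rose, with a median of -0.53, and of -0.33 for thapsigargin alone against DMSO. Iigp1 read 9.80, 9.98 and 9.84 against 6.18, 6.34 and 6.23. Ifit2, an inhibitor of viral translation, fell by 1.74 ± 0.08, the factor gene Irf1 by 1.42 ± 0.07 and Ifit1 by 1.37 ± 0.17. The rises were Isg20, at 0.73, and Mx2, at 0.26, and 1 rise was counted without DMSO replicate 1 and both-drug replicate 1. Of 14 antigen presentation genes 12 fell, with a median of -0.60, and of -0.55 for thapsigargin alone against DMSO. Tapbp, which loads peptides onto class I molecules, read 11.20, 11.00 and 11.13 against 9.02, 9.06 and 9.05. The class II gene H2-Ab1 fell by 1.59 ± 0.07, the peptide trimming gene Erap1 by 1.41 ± 0.08 and the immunoproteasome gene Psmb10 by 1.17 ± 0.06. Of 16 complement genes 4 fell and 12 did not pass, with a median of -0.12. Over all genes 34.5% were called in either direction and 16.7% were called lower. Of the 16 complement genes 9 lay below the median level in both groups. The falls were C4bp, an inhibitor of the classical pathway, by 2.54 ± 0.07, Masp1 by 1.53, C2 by 1.52 and Cd59a by 0.56. Against thapsigargin alone C4bp and Cd59a were higher, by 0.88 and 0.29.

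Of 19 pro-apoptotic genes 13 fell and 2 rose, with a median of -0.34, and of 11 anti-apoptotic genes 3 fell and 1 rose, with a median of -0.21. The anti-apoptotic count lies near the 34.5% called over all genes. The death receptor gene Fas read 9.85, 9.94 and 9.99 against 7.45, 7.52 and 7.60. Casp12, a caspase at the ER, read 9.01, 9.28 and 9.32 against 7.19, 7.33 and 7.29, while the inflammatory caspase gene Casp4 read 7.36, 7.57 and 7.78 against 8.84, 8.85 and 8.96. These 2 caspases thus lay on opposite sides of DMSO, at -1.93 ± 0.11 and 1.31 ± 0.10. Diablo, whose product blocks inhibitors of apoptosis, rose by 0.61. Among the protective genes Birc2 rose by 0.88 ± 0.13, and Bcl2l1, Mcl1 and Bag3 fell by 0.70, 0.56 and 0.52. Bcl2 did not pass, at -0.06 ± 0.06. The number of anti-apoptotic genes that fell was 5 after another quantile normalization and 6 among genes above the median level. Of 15 p53 targets 9 fell and 2 rose, with Perp at -1.81 ± 0.11, Sesn1 at -1.10 ± 0.12 and Rrm2b, a rise, at 0.60.

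Genes that characterise podocytes were mostly lowered. Of 34 measured members 20 fell, 9 of them at least 2-fold, 2 rose and 12 did not pass, with a median of -0.31. In a bulk sample fewer cells of a type and less RNA per cell cannot be told apart. Npnt, which encodes the integrin ligand nephronectin of the basement membrane, read 11.57, 11.62 and 11.63 against 8.86, 8.97 and 9.0. Synpo, whose product synaptopodin binds actin, read 9.25, 9.14 and 9.20 under DMSO, 6.51, 6.66 and 6.85 under thapsigargin and 7.2, 7.24 and 7.24 under both drugs. It stood 1.97 ± 0.08 below DMSO and 0.55 above thapsigargin alone.

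Podxl, which encodes the negatively charged surface protein podocalyxin, read 8.50, 8.37 and 8.52 under DMSO and 6.77, 7.0 and 7.22 under both drugs. It lay below thapsigargin alone by 0.79, so that Synpo and Podxl lay on opposite sides of that group. The integrin gene Itga3 fell by 1.60 ± 0.06, the laminin receptor gene Dag1 by 1.32 ± 0.05 and Ezr, which links podocalyxin to actin, by 1.22 ± 0.05. Wt1, the podocyte transcription factor gene, differed by -0.26 ± 0.08, and its call was lost without DMSO replicate 2, both-drug replicate 2 or both-drug replicate 3. Nphs1 differed by -0.12 ± 0.10, and Cd2ap, an adaptor of the slit diaphragm, by -0.02. The calcium channel gene Trpc6 was at -0.30 ± 0.12 and was called lower under 5 alternatives. The genes that rose were Vegfa, the main growth factor podocytes supply to capillaries, which read 10.35, 10.17 and 10.17 against 11.27, 11.35 and 11.26, and Foxc2 at 0.41.

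Some markers of other cell types changed too, in each list a smaller share than the 34.5% called over all genes. Of 17 tubular and other epithelial markers 4 fell: Aqp1, Cdh16 by 2.83 ± 0.05, Lrp2, which encodes megalin, by 0.70, and the claudin gene Cldn2. The both-drug values of Cldn2, 4.25 to 4.36, lie under the lower quartiles of those arrays, so no size is given for it. The mean log2 value of the 10 tubular markers checked lay between 7.22 and 7.30 on the DMSO arrays and between 6.43 and 6.57 on the both-drug arrays. That of the 10 podocyte markers lay between 8.36 and 8.39 and between 7.4 and 7.44. Of these, 3 tubular and 5 podocyte markers were called lower, so the means do not describe every marker. The part of these markers in the other results was not tested. Mcam rose and Pdgfrb fell by 0.85 among 9 mesangial and pericyte markers, and Ehd3, at -1.32, and Flt1, at -0.29, fell among 12 endothelial markers, of which 4 were lower without both-drug replicate 1. Among 12 leukocyte markers the lipopolysaccharide co-receptor gene Cd14 rose by 0.97 ± 0.09. Csf1r fell by 0.35 ± 0.12, with a limma adjusted p of 0.049 that was above the threshold under 10 of the alternatives, where it reached 0.185.

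**Figure D4:**
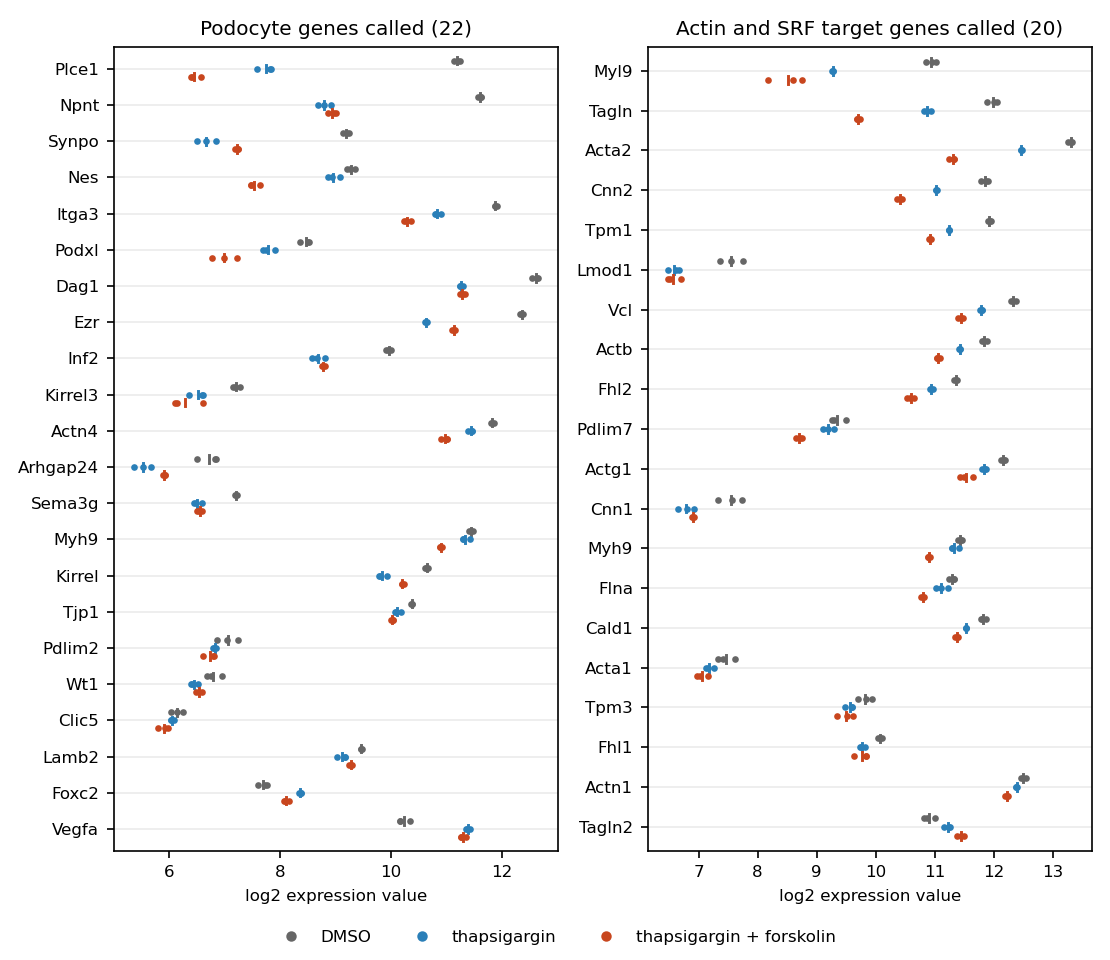
Log2 expression values (horizontal axis) on all 9 arrays of the 22 called podocyte genes and the 20 called actin and SRF target genes, ordered by their change against DMSO; points are arrays and bars group means. Plce1, Npnt and Synpo lie more than 1.9 log2 units below DMSO, and for Acta2, Tagln and Myl9 the both-drug arrays lie below both other groups.

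Extracellular matrix genes were lowered broadly. Of 39 members 27 fell, 14 of them at least 2-fold, and 1 rose, with a median of -0.63, the lowest of the 41 lists. For thapsigargin alone against DMSO the list median was -0.50. Nid1, which encodes the laminin and collagen IV linker nidogen, read 9.52, 9.38 and 9.61 under DMSO, 7.69, 7.64 and 7.90 under thapsigargin and 6.66, 6.70 and 6.77 under both drugs. Its relative Nid2 read 11.62, 11.74 and 11.69, then 8.64, 8.62 and 8.64, then 9.44, 9.50 and 9.46. Both nidogen genes fell against DMSO, but the both-drug arrays lay below thapsigargin alone for Nid1 and above it for Nid2. The collagen IV genes Col4a1 and Col4a5 fell by 1.0 ± 0.06 and 1.44 ± 0.07. Col5a1 was the rise, at 0.36, with no rise counted when a gene's probe sets were averaged and 2 without DMSO replicate 1. Fn1, which encodes fibronectin, did not pass at -0.11, nor did Col3a1 at 0.01.

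Of 24 crosslinking, protease and inhibitor genes of the matrix 18 fell and 2 rose, with a median of -0.53. The aggrecanase gene Adamts4 read 9.04, 8.98 and 9.13 against 6.76, 6.56 and 6.57. The protease inhibitor gene Timp2 fell by 1.82 ± 0.05, the lysyl oxidase gene Loxl3 by 1.72 ± 0.08 and the membrane protease gene Mmp14 by 1.54 ± 0.05. Lox fell by 0.96 ± 0.07. The rises were Loxl4 at 0.50 and Adamts1 at 0.41.

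Genes of the actin skeleton, many of them driven by the factor SRF, fell in 19 of 26 cases and rose in 1, with a median of -0.52 against DMSO, -0.25 against thapsigargin alone and -0.29 for thapsigargin against DMSO. In the last comparison 4026 of all genes (18.2%) were called higher and 3742 (16.9%) lower. Acta2, the smooth muscle actin gene, read 13.32, 13.33 and 13.27 under DMSO, 12.47, 12.47 and 12.48 under thapsigargin and 11.33, 11.33 and 11.25 under both drugs. Tagln, which encodes transgelin, lay between 11.89 and 12.06 under DMSO, between 10.82 and 10.94 under thapsigargin and between 9.68 and 9.74 under both drugs. Both genes stepped down from group to group with no overlap. The myosin light chain gene Myl9 fell by 2.43 ± 0.13, with both-drug replicate 1 the lowest at 8.18, and calponin gene Cnn2 by 1.44 ± 0.05. Actb fell by 0.78 ± 0.05. Tagln2 was the rise, at 0.54. Srf itself, at 0.01, did not pass.

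Adhesion genes followed. Of 21 integrin and focal adhesion genes 16 fell and 1 rose, with a median of -0.44. Itga3 read 11.91, 11.87 and 11.88 against 10.24, 10.26 and 10.36. Itgav fell by 1.17 ± 0.05, Itga1 by 1.11 ± 0.06 and Itga6 by 1.0 ± 0.08. The laminin-binding integrin gene Itga7 rose by 0.92 ± 0.07. Of 20 targets of YAP and TEAD, factors that read tension in the actin skeleton, 13 fell and 1 rose, with a median of -0.46. After Tgfb2 the largest falls were those of the receptor kinase gene Axl at -1.07 ± 0.06, Wwc1 at -0.91 ± 0.05 and Ccn2 at -0.77 ± 0.06. Amotl1 was the rise, at 0.34, and 2 or 3 rises were counted under 3 alternatives.

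Growth factor genes fell in 15 of 28 cases and rose in 3, with a median of -0.38. Igf1 read 8.90, 8.96 and 8.87 against 6.23, 6.07 and 6.17. Fgf18 fell by 2.68 ± 0.07, Bmp4 by 2.53 ± 0.08 and Pdgfb by 1.96 ± 0.06. The rises were Fgf7, Vegfa and Vdr, the last a receptor on this list. Of 17 feedback and output genes of the ERK kinase cascade 6 rose and 9 fell. The growth factor response gene Myc read 9.38, 9.16 and 9.04 against 11.22 on each both-drug array, a 4.08-fold rise. The cyclin D1 gene Ccnd1 fell by 1.44 ± 0.06 and Phlda1 by 1.37 ± 0.07.

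Cell cycle genes moved in both directions, 9 higher and 6 lower of 28, with a median of -0.01. The replication genes Cdc45, at 1.14 ± 0.07, and Mcm7, at 0.88 ± 0.07, rose. Ccna2, which encodes cyclin A2, fell by 0.75 ± 0.10 and Rrm2 by 0.67 ± 0.14. Against thapsigargin alone 7 of the 28 were called lower, with a median of -0.12.

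Cholesterol synthesis genes rose in 9 of 16 cases and fell in 4, with a median of 0.46. Mvd read 8.35, 8.15 and 8.38 against 9.98, 10.05 and 10.03. Fdps rose by 1.62 ± 0.06 and Sqle by 1.61 ± 0.07, while Dhcr7, which makes the last step to cholesterol, fell by 0.53. Of 25 lysosome and autophagy genes 14 fell and 5 rose, with a median of -0.31. The hexosaminidase gene Hexa fell by 1.23 ± 0.06, the acid glucosidase gene Gaa by 1.16 ± 0.06 and the protease gene Ctsl by 1.01 ± 0.06. Of 25 oxidative phosphorylation subunit genes 11 fell, by 0.20 for Cox5a up to 0.77 ± 0.09 for Cox7a2.

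The NRF2 antioxidant genes were split, 7 higher and 4 lower of 17, with 2 lower without DMSO replicate 1 and both-drug replicate 1. The heme oxygenase gene Hmox1 read 11.22, 10.95 and 11.07 against 12.14, 12.14 and 12.15, and Gstm1 fell by 1.47 ± 0.06. Glycolysis genes were split too, 6 higher and 8 lower of 19. Hexokinase gene Hk2 rose 3.87-fold (1.95 ± 0.08) and Eno2 2.81-fold, while Pfkm fell by 1.07 ± 0.07. Arrdc4, an arrestin-like regulator of glucose uptake, rose by 1.18 ± 0.06, and its relative Txnip differed by -0.01 ± 0.06.

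Clock genes changed in 14 of 17 cases, 8 up and 6 down. Nfil3 read 7.74, 7.96 and 7.38 against 9.89, 9.90 and 9.95. Its antagonist Dbp, which acts on the same promoter sites, read 9.95, 9.64 and 9.73 against 7.66, 7.86 and 7.86. Ciart rose by 1.84 ± 0.09 and Arntl, which encodes BMAL1, by 1.34. Bhlhe41 fell by 1.65 ± 0.06. Per3 fell by 1.46 and Per1 rose by 0.84, so that members of 1 family lay on opposite sides. The cells were sampled at 1 time, and no order in time can be read.

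Among 14 prostaglandin genes 3 rose and 2 fell, a share near the 34.5% called over all genes. Ptgs2 read 9.57, 9.73 and 9.62 against 12.61, 12.71 and 12.71, Pla2g4a, which frees its substrate, rose by 0.75 ± 0.06, and the receptor gene Ptger4 fell by 1.26 ± 0.10. Ptges3 was called at 0.82 ± 0.23, a call lost under 5 alternatives, with DMSO values spread from 5.31 to 6.4. The receptor gene Ptger2 fell, with all 6 values between 3.92 and 4.29 and so under the lower quartiles, and a single fall was counted in this list under 10 alternatives. Of 16 potassium channel genes 3 rose and 3 fell, also near that share. The rises were Kcnk1 (0.98 ± 0.07), Kcnk5 (0.94 ± 0.07) and Kcnj2 (0.82 ± 0.15). Kcnj8, at -0.45 ± 0.13, lost its call under 5 alternatives.

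**Figure D5:**
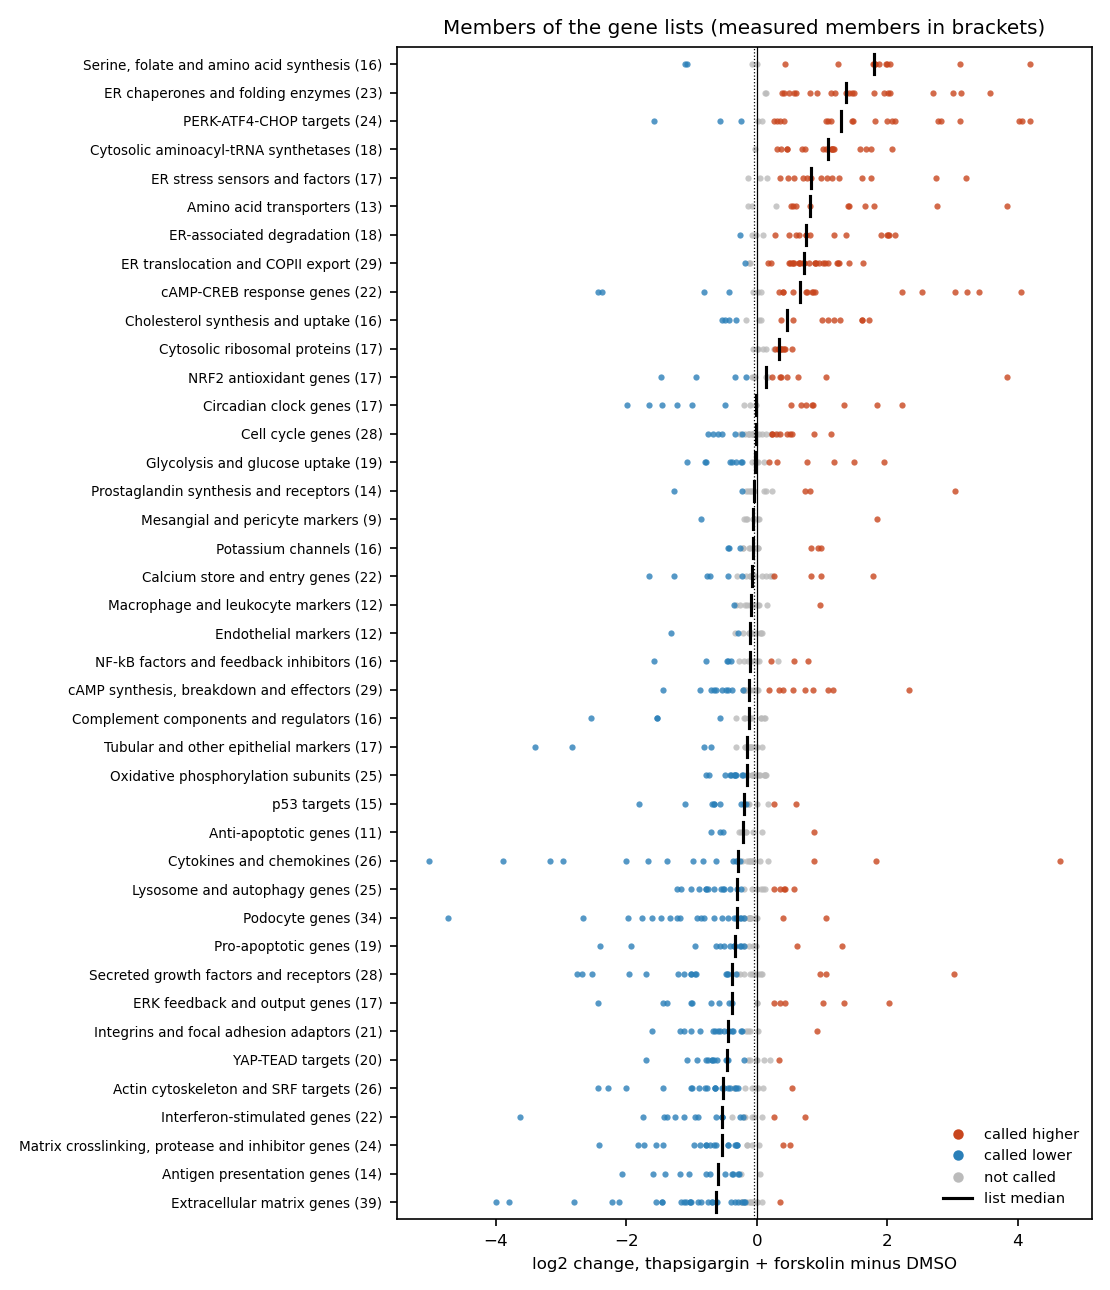
Log2 changes, both drugs minus DMSO, of the measured members of the 41 gene lists, ordered by list median; each point is 1 gene coloured by its call, the black bar is the list median and the dotted line the median of all genes, -0.04. Lists of amino acid supply and the ER lie to the right, those of matrix, antigen presentation and actin to the left, and lists such as the clock genes and cytokines hold large changes in both directions.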

How the data were processed

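RNA of 9 podocyte samples was measured on single-colour arrays. The deposited table holds log2 expression for every probe set on each array. Its authors used RMA in affy, as the submitters' processing notes list; no version or build was given in the labels. RMA makes array distributions alike, so changes are relative to the bulk of genes, and background was not checked here. Of 41345 probe sets 23521 had 1 gene symbol, 1814 several and 16010 none; 23328 of the first matched a RefSeq table (GRCm38.p6) by Entrez ID. Of 1082 genes with several probe sets, 6 had probe sets called in opposite directions; none of these is named.

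Group means of all 9 arrays were fitted with limma 3.58.1 in R 4.3.3 (6 residual degrees of freedom, eBayes), with a threshold of 0.05 on the adjusted p (Benjamini-Hochberg). The code was tested on simulated data. The precision is limited by 3 arrays per group. Members, lists and rules were chosen with earlier results of these data known. The rule names the 12 largest rises and falls, 8 genes higher and 8 lower than in both other groups, 6 and 6 moved by thapsigargin with overlap of DMSO, up to 4 called members per list and fixed single genes; apart from list members and single genes, the highest group mean had to lie above 5.84, and clone and predicted names were passed over. Other list members, among them those that moved against their list or did not pass, were named after their values were seen. The 41 lists hold 795 measured genes, and 71 memberships were not measured. Alternatives were the 6 arrays alone, an intensity trend with robust prior, array weights, centring, a repeated quantile normalization, only genes above the median level, averaged or single probe sets, the replicate number as a block, and left-out arrays. Python 3.11.15 was used for promoters and figures.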

Additional observations from a re-analysis of the deposited data

How the results depend on the processing

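The counts of called genes stayed within 1.5 times under the alternatives run, with 1 exception: with all probe sets tested singly, 1153 were higher and at least 2-fold, beside 571 genes. Leaving out 1 array at a time gave 6654 to 7811 called genes, 3474 to 3968 higher and 3165 to 3843 lower, with 538 to 612 and 577 to 610 at least 2-fold. The share of calls that were higher was 51.7%, 51.3% after centring and 45% after another quantile normalization (3544 higher, 4334 lower). Whether the replicate numbers pair the arrays is not settled. Same-numbered DMSO and both-drug arrays had deviations correlated at 0.25, -0.01 and 0.23, and differently numbered ones at -0.30 to 0.09. The replicate block gave 8040 calls. Of 187 genes covered by the naming rule 171 were called, and 167 to 171 kept their call and direction per alternative. No list median changed sign under the scalings. Low signal limits Il6 and Slc7a11 under DMSO, Cldn2 and Trpc6 under both drugs and Ptger2 in both groups, since background was not checked.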

Other observations

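Probe sets without a gene symbol leaned to one side in the same comparison. Of 16010 such probe sets 1535 were called higher and 627 lower, and 510 and 74 of these by at least 2-fold. Of 23521 probe sets with 1 symbol 3736 were higher and 3278 lower, 606 and 614 of them by at least 2-fold. The transcripts behind the unnamed probe sets are not named here.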
